A study of Mus musculus with 25 samples.

Results

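The WFDC locus of mouse chromosome 2 holds genes for small secreted protease inhibitors, and the seminal vesicle secretory genes Svs2 to Svs6 lie inside it. Members were all genes whose symbol starts with Wfdc and a digit or with Svs2 to Svs6, together with Eppin, Slpi, Spint3, Spint4 and Spint5. The rule found 29 of the 24358 genes in the table, namely 6 Svs genes, 18 Wfdc genes, 3 Spint genes, Eppin and Slpi. Of these, 25 lie on chromosome 2 between positions 164176327 and 164745931 of GRCm38 (GENCODE M21), and 4 Wfdc genes lie elsewhere. The question was whether the neighbours of the Svs genes vary with them.

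RNA of cauda epididymal sperm from mice aged 14 weeks was sequenced in 25 libraries, 5 for each of 5 groups. C57 vehicle (C57.CTL.F1 in the plots) and FVB vehicle (FVB.CTL.F1) were first-generation C57BL/6J and FVB/N males whose mothers were given corn oil by mouth from embryonic day 9 to 19. The mothers of C57 DEHP (C57.D300.F1) and FVB DEHP (FVB.D300.F1) males were given 300 mg/kg/day of the plasticizer DEHP over the same days. C57 F2 (C57.D300.F2) were second-generation C57BL/6J males with exposed first-generation fathers and unexposed mothers, and there was no second-generation vehicle group. The 10 libraries of C57 vehicle and C57 DEHP are marked as re-analysed and the other 15 are not, so differences of C57 F2 or FVB vehicle from them cannot be told apart from a difference between these sets of libraries. The table holds 1 scaled estimated fragment count per gene and group, called a count here, and 5 values in a row are given in the order C57 vehicle, C57 DEHP, C57 F2, FVB vehicle and FVB DEHP. The counts summed to 8602899.5, 7748902, 6921688, 7568129 and 8278486 over the genes without a failed estimate in the group. Failed estimates numbered 50, 44, 36, 35 and 39, so these totals cover slightly different genes. With 1 value per group there is no spread between libraries and no replicate error for any difference. The SD under the authors' Cuffdiff model, called the model SD, is given in its place and is not a measured spread. No fold is given where a count is 3 or less, a floor that covers counting error only.

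WFDC proteins carry a whey acidic protein domain, a compact fold held by disulfide bonds, and many of them block serine proteases. Spint proteins use the unrelated Kunitz domain, and Eppin carries both kinds. Svs2 to Svs6 encode major proteins of the seminal vesicle fluid, and SVS2 is a main component of the copulatory plug. Semenogelin, its human counterpart, binds EPPIN on the sperm surface.

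Along the chromosome, Wfdc5, Wfdc12, Wfdc15a and Wfdc15b come before the Svs genes, which span 98.5 kb from 164235929 to 164334396 in the order Svs2, Svs3b, Svs4, Svs3a, Svs6 and Svs5. Wfdc15b ends 14.3 kb before Svs2, and Slpi starts 19.7 kb after Svs5. Beyond a gap of 173 kb with 7 genes that are not members, a second cluster of 14 members runs from Wfdc2 to Wfdc3 and includes Eppin, Spint3, Spint4 and Spint5.

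Upstream sequences are shown because the 6 Svs genes moved together. RefSeq promoter windows (GRCm38.p6) were found for 25 of the 29 members and not for Wfdc1, Wfdc5, Wfdc13 and Wfdc21. For the 4 members with 2 or more windows the first listed was used, while shares over all windows count each one. The 250 bases before each start were searched on both strands for TATAAA, for an androgen receptor half-site (AGAACA), and for the forkhead-type motif TGTTTAC and its variant with G in place of A (TGTTTGC). The motifs were chosen with the results known. Capitals mark matches, and each sequence runs 5′ to 3′ on the strand of the gene. Positions count from the RefSeq start. For Svs2 the bases nearest to that start lie inside the GENCODE gene, so only those from -250 to -150 are shown. For Svs4 only the last 30 are shown, which lie in an exon of the GENCODE annotation, as do the last 25 bases of Svs5.

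Svs2, chr2:164238491-164238591, minus strand: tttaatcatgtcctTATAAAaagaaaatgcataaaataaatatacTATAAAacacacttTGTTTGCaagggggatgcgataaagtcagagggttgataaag
Svs4, chr2:164278308-164278337, minus strand: taTATAAAttaagaactcagcttagccttc
Svs3a, chr2:164289017-164289266, plus strand: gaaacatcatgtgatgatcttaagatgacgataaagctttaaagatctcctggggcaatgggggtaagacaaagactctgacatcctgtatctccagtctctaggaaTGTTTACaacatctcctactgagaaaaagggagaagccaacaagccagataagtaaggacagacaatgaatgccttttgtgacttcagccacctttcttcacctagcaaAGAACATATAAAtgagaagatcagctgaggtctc
Svs6, chr2:164316501-164316750, plus strand: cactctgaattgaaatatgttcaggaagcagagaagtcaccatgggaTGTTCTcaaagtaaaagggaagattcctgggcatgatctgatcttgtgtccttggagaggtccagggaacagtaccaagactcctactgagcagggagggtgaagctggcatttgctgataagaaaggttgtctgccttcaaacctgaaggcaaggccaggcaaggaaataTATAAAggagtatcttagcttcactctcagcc
Svs5, chr2:164332515-164332764, plus strand: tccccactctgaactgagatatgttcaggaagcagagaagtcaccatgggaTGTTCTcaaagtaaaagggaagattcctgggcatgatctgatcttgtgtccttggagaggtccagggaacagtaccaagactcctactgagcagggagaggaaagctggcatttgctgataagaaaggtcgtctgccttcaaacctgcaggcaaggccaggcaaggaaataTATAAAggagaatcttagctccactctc

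In 5 of the 6 Svs genes TATAAA began between 35 and 25 bases before the start on the strand of the gene, at -28 in Svs3a, Svs3b, Svs4 and Svs5 and at -32 in Svs6. In Svs2 it began at -236 and -205. Of 32851 windows of the same length 1.75% had TATAAA in that interval, and among the other 19 members with a window Wfdc18 had it. At any position and on either strand, 12.4% of all windows held TATAAA. The half-site AGAACA was found in 4 Svs genes (Svs3a, Svs3b, Svs5 and Svs6) and 3 other members, and in 16.1% of all windows. In Svs3a and Svs3b it directly precedes TATAAA. The motif TGTTTAC was found in Svs3a and Svs3b and in 3.17% of all windows. Its variant TGTTTGC was found in Svs2 and 3 other members, and in 4.30% of all windows. A match describes the letters of a window and is not a binding site. The upstream bases were 97.6% identical between Svs3a and Svs3b and 93.3% between Svs5 and Svs6, while other pairs of Svs genes had 45.0% to 60.7%. Pairs of an Svs gene with Wfdc15b, Slpi, Spint4 or Spint5 had 44.6% to 51.3%.

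The windows of Wfdc15b, the member nearest to Svs2 on its other side, and of Spint4 and Spint5, the members that were high in FVB DEHP, are shown for comparison.

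Wfdc15b, chr2:164221664-164221913, minus strand: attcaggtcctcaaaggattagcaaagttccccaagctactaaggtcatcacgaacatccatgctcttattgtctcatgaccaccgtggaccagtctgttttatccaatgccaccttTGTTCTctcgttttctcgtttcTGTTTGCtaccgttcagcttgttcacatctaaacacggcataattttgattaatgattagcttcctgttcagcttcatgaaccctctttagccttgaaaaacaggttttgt
Spint4, chr2:164698251-164698500, plus strand: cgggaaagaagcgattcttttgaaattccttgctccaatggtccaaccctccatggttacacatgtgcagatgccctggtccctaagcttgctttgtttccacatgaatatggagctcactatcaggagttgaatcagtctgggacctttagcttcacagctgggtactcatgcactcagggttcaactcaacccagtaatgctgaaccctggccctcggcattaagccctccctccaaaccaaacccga
Spint5, chr2:164715055-164715304, plus strand: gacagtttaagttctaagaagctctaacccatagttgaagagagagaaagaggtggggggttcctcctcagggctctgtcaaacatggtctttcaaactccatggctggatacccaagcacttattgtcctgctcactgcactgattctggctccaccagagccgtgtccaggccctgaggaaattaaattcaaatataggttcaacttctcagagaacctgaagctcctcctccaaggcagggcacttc

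Wfdc15b held AGAACA on the opposite strand and TGTTTGC on its own, and no motif that was searched lay in the windows of Spint4 and Spint5.

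All 6 Svs genes had many counts in C57 vehicle and few in the other groups. Svs4 had 63518, 28.8, 168, 199.8 and 119 counts. Svs2, the plug protein gene, had 54433, 11.2, 201, 72.1 and 45.0 counts. Svs5 had 48670.3, 1.86, 54.2, 7.47 and 11.1 counts. For Svs2 and Svs5 the next highest group was C57 F2, and for Svs4 it was FVB vehicle. Svs6 had 12518, 0.563, 15.5, 2.36 and 0.284 counts. Svs3a had 2248, 1.79, 4.62, 0.838 and 1.23 counts and Svs3b 2559.9, 1.11, 5.77, 1.76 and 0. As 56.2% of the 25-base stretches of Svs3a transcripts also occur in Svs3b, the division of counts between them is uncertain. Together the 6 genes held 2.14% of all counts in C57 vehicle and 0.000584% in C57 DEHP.

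**Figure D1:**
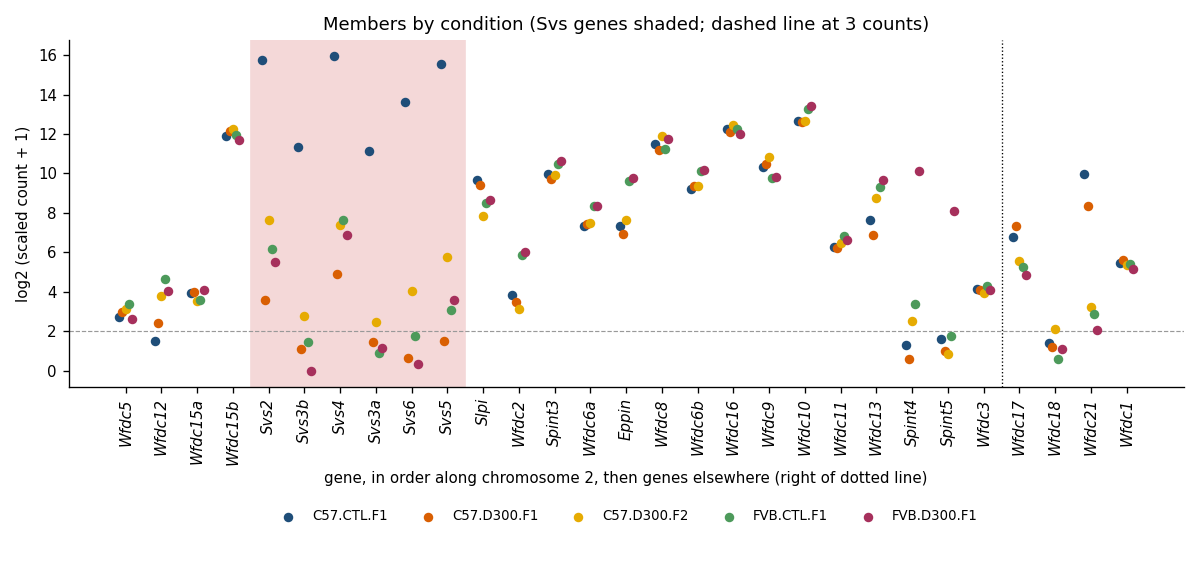
Scaled counts of the 29 members on a log2 scale with 1 added, 1 point per group, in order along chromosome 2 and then elsewhere. The 6 shaded Svs genes are highest in C57 vehicle, Wfdc15b beside them stays between 3319 and 4929.6 counts, and Spint4 and Spint5 are highest in FVB DEHP.

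Levels of the Svs genes were compared per kb of exon. In C57 vehicle Svs4 made up 40.0% of their summed level per kb, Svs5 34.7%, Svs2 12.6%, Svs6 10.8%, Svs3b 0.945% and Svs3a 0.863%. Svs4 made up 76.8% in C57 DEHP, 50.8% in C57 F2, 83.4% in FVB vehicle and 79.7% in FVB DEHP. The share of Svs5 was 5.60%, 18.5%, 3.53% and 8.41% in the same groups. The share of Svs2 was 11.0%, 22.4%, 11.1% and 11.1%. Svs4 thus had a larger share and Svs5 a smaller one in each low group than in C57 vehicle, while that of Svs2 was similar except in C57 F2. Several counts of the low groups are near the floor, and the counts of C57 vehicle have a large model SD.

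The model SD of the Svs genes was large in C57 vehicle. It was 7.51 times the count for Svs2, 7.43 times for Svs4, 7.52 times for Svs5, 1.85 times for Svs6, 0.912 times for Svs3a and 0.946 times for Svs3b. For the 15 WFDC and Kunitz genes of the locus with 10 counts or more the ratio was 0.246 to 0.442, and the median over 16459 genes was 0.276. In C57 F2 the 4 Svs genes with 10 counts or more had ratios of 0.274 to 0.475. Whether 1 library carries the Svs counts of C57 vehicle was not tested, as no value of a single library is in the table.

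**Figure D2:**
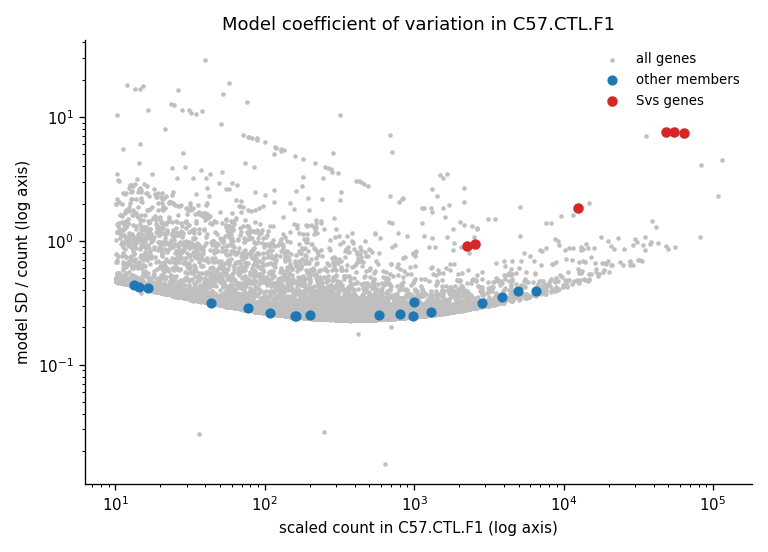
Model SD divided by the count against the count in C57 vehicle, both on log axes, for genes with at least 10 counts and a model SD above 0. The 6 Svs genes lie between 0.912 and 7.52, and the WFDC and Kunitz genes of the locus between 0.246 and 0.442.

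The effect of prenatal DEHP in C57BL/6J was addressed by C57 DEHP against C57 vehicle. The 6 Svs genes were lower and no other member was called. A gene was called where the log2 ratio of the counts, with 1 added to each, reached 2 units either way, and was tested where either group had 10 counts. Of 16825 genes tested, 0.256% were called lower and 0.0357% higher. The log2 ratio was -14.06 for Svs5, -12.97 for Svs6, -12.13 for Svs2, -11.06 for Svs4, -10.24 for Svs3b and -9.66 for Svs3a. Svs5, Svs6, Svs3b and Svs3a had 3 counts or fewer in C57 DEHP. The size and order of their ratios thus depend on the pseudocount. Svs2 was 4877-fold and Svs4 2205-fold lower. The difference exceeded its model SD for Svs3a (2246 against 2051) and Svs3b (2559 against 2422), and did not for Svs2, Svs4, Svs5 and Svs6. Wfdc21, outside the locus, was 2.99-fold lower, a log2 ratio of -1.58 short of the threshold, and its difference exceeded its model SD (659 against 339).

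The neighbours did not share the decrease. Wfdc15b had 3855, 4599.7, 4929.6, 3902 and 3319 counts, and its log2 ratio of C57 DEHP to C57 vehicle was 0.25. Slpi, which encodes an inhibitor of leukocyte elastase and lies on the other side, had 804, 676, 228, 361 and 402 counts and a log2 ratio of -0.25. Both differences were smaller than their model SD. In the second cluster the 12 members tested had log2 ratios from -0.76 for Wfdc13, where the difference exceeded its model SD (82.5 against 60.6), to 0.17 for Wfdc6b. Over the 15 of 19 WFDC and Kunitz genes of the locus that were tested the median was -0.09, beside -0.01 over all genes tested. It was also -0.09 over all 19. Their summed counts were 22564 in C57 vehicle and 21649 in C57 DEHP.

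Of 26 other genes within 500 kb of the Svs genes, 22 were tested and 0 were called. Their median log2 ratio was -0.04, and -0.08 over all 26. The nearest on the centromeric side was the potassium channel gene Kcns1, 64.8 kb away, with 283 counts in C57 vehicle and 197 in C57 DEHP. On the other side the microRNA gene Mir7678, inside the annotated span of Slpi, had 1.76 and 0.139 counts, and Matn4, 55.0 kb away, had 14.6 and 17.9. Tnnc2, a muscle troponin gene named after its values were seen, had 79.7 and 188 counts and the largest log2 ratio of the 22 in size (1.23).

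**Figure D3:**
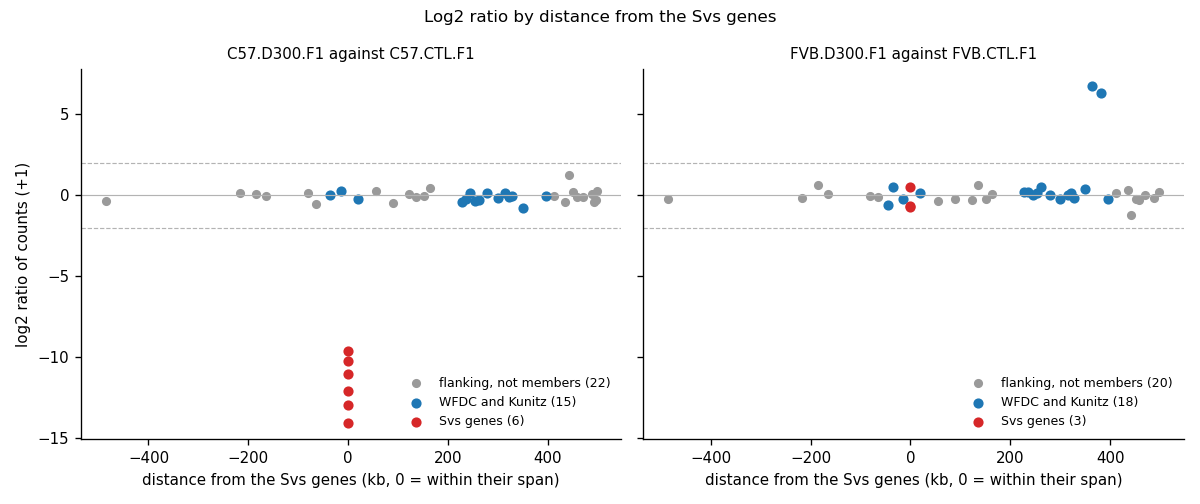
Log2 ratio of DEHP to vehicle counts by distance in kb from the span of the Svs genes, in C57BL/6J (left) and FVB/N (right), for genes with at least 10 counts in 1 group, with dashed lines at 2 log2 units either way. On the left the 6 Svs genes lie between -14.06 and -9.66 and all other points between -0.76 and 1.23, and on the right Spint4 and Spint5 alone pass a line.

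Seminal vesicle genes outside the cluster were lower in C57 DEHP as well. Of 7 such genes tested, 6 were lower and 0 higher, with a median log2 ratio of -7.98. Their summed counts were 84568, 2586, 3189, 5393 and 5716, with Pate4 the most abundant in C57 vehicle (35622 counts) and Ceacam10 in the other groups. Sva, the seminal vesicle antigen gene, had 9590.2, 6.18, 14.3, 0.307 and 0.952 counts. Spink1, a trypsin inhibitor gene, had 14805 counts in C57 vehicle and was listed at 0 in C57 DEHP and FVB DEHP. Ceacam10, which was not called, had 3514, 1472, 1819.7, 3141 and 3564 counts. From these same libraries the authors had picked Sva, Pate4, Spink1 and 9530003J23Rik as lower in C57 DEHP, so their calls were known in advance. Of the rest, Svs1 had a log2 ratio of -4.22, Spinkl of -4.06 and Ceacam10 of -1.25. The model SD of the listed genes is not given here. Relative to C57 vehicle, 6 of the 7 were also lower in C57 F2 and 6 in FVB vehicle, and with DEHP in FVB/N 0 of 4 tested were called. In bulk samples fewer cells of a type and less RNA per cell cannot be told apart, and the part of seminal vesicle RNA in the result was not tested.

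Among the other marker lists S100a9, a leukocyte gene, was the 1 gene called between C57 DEHP and C57 vehicle. Of 9 coagulum and EPPIN partner genes, 5 were tested and 0 were called, and the sums were 45802, 36882, 65132, 95896 and 88586. Lactoferrin (Ltf) was the most abundant of them except in C57 F2 and FVB DEHP, where clusterin (Clu) was. The 6 prostate and coagulating gland genes summed to 39.5, 46.1, 279, 49.5 and 106, mostly Tgm4, the transglutaminase that cross-links the plug. Sbp among them was listed at 0 in C57 DEHP, C57 F2 and FVB DEHP.

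The 8 testicular germ cell genes, protamine genes among them, had counts in all groups, with sums of 91455, 77151, 30658, 7239.6 and 8656. Whether these sums follow the amount of sperm was not tested. Smcp was the most abundant in C57BL/6J and Odf1 in FVB/N. With DEHP 0 of 8 were called in either strain, and 8 of 8 were lower in FVB vehicle than in C57 vehicle. The 9 liver genes summed to 198623, 170867, 4626, 1028 and 811, with Alb the most abundant, and 9 of 9 were lower in C57 F2 and in FVB vehicle than in C57 vehicle. The 9 blood and leukocyte genes summed to 4822, 4830.3, 2744, 1522 and 4278, led by Lyz2 and, in FVB DEHP, by Hba-a2. Of 6 tested, S100a9 was lower in C57 DEHP, with 5.53 counts against 49.6, and 3 were higher in FVB DEHP than in FVB vehicle. The 6 smooth muscle and connective tissue genes, led by Col1a1, summed to 26184, 21715, 21127, 20036 and 14230.1. In C57 DEHP against C57 vehicle their median log2 ratio was -0.76. Col1a1 was at 0.48 and the others lay between -1.16 (Cnn1) and -0.63 (Des). The 6 epithelial genes, led by Krt18 in C57BL/6J and Epcam in FVB/N, summed to 8579, 6743, 8612, 12853 and 12806. In both of these lists 0 genes were called in any comparison.

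**Figure D4:**
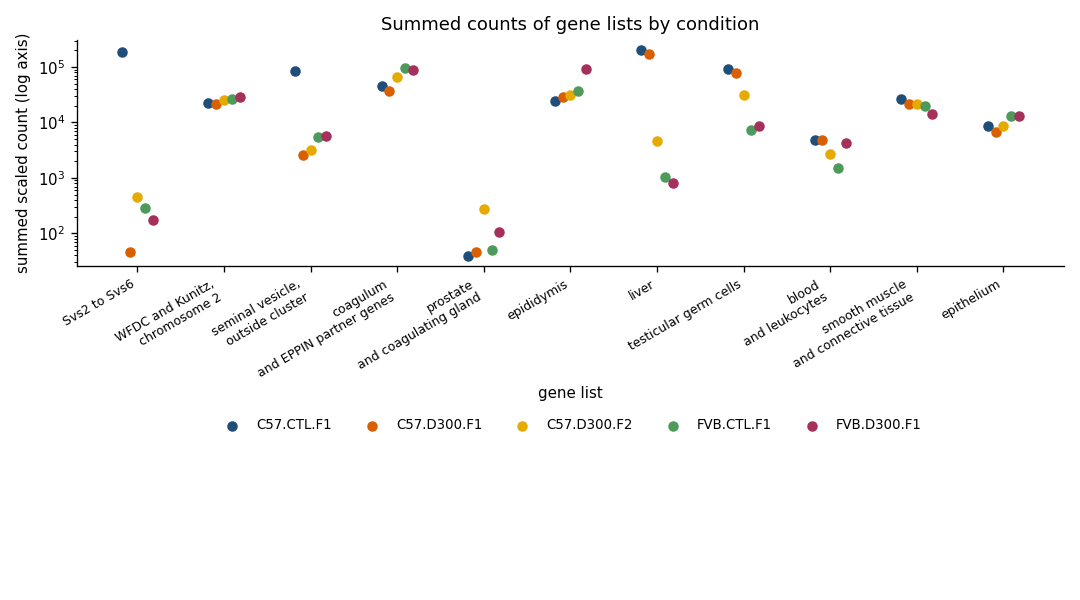
Summed scaled counts of the Svs genes, of the 19 WFDC and Kunitz genes of chromosome 2 and of 9 marker lists, on a log axis, 1 point per group, without genes that have a failed estimate. Both seminal vesicle sums are highest in C57 vehicle, the WFDC and Kunitz sum stays between 21649 and 29215, and the epididymis sum is highest in FVB DEHP.

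In FVB/N, DEHP was compared with vehicle in the same way, and the Kunitz genes Spint4 and Spint5 were higher while 0 members were lower. Of 16471 genes tested, 0.662% were called higher and 0.0182% lower. Spint4 had 1.47, 0.540, 4.73, 9.46 and 1123 counts, a 119-fold difference between the FVB groups and a log2 ratio of 6.75. Spint5 had 2.03, 0.991, 0.830, 2.45 and 273 counts and a log2 ratio of 6.31, whose size depends on the pseudocount. No other group came near FVB DEHP for either gene. Both differences exceeded their model SD, with 1113 against 1040.1 for Spint4 and 270.2 against 147 for Spint5.

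Spint4 (164698501 to 164702453) and Spint5 (164715305 to 164718068) are adjacent, 12.9 kb apart on the plus strand. Their own neighbours were not called. Wfdc13, 10.8 kb before Spint4, had 628 counts with vehicle and 813 with DEHP. Wfdc3, 13.1 kb after Spint5, had 18.8 and 15.9, and the third Kunitz gene, Spint3, had 1406 and 1591. Over the 18 WFDC and Kunitz genes tested the median log2 ratio was 0.15, and 0.14 over all 19, beside 0.00 over all genes tested. Of the 20 flanking genes tested 0 were called.

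Most of the listed epididymal genes that were tested were higher in the same group. Of 15 listed genes, 14 are in the table and 13 were tested. Of these, 12 were higher in FVB DEHP and 0 lower, with a median log2 ratio of 6.63. Of the 13, only Gpx5, Rnase10, Spag11b and Adam7 had 10 counts in FVB vehicle, with log2 ratios of 8.38, 4.87, 5.68 and 0.53. The rest reached 10 counts in FVB DEHP alone, so none of them could be lower. From these same libraries the authors had picked Lcn5, Lcn8, Lcn9, Gpx5, Spag11b and Defb30 as higher in FVB DEHP. The number called and the median were thus in part known in advance. Rnase10 and Adam7 were not among the genes picked. Crisp1 had failed estimates in 3 groups, and without it the sums were 24199, 28329, 30691, 37476 and 92914. Crisp1 itself had 108274 counts in C57 vehicle and 219328 in FVB DEHP. Of the other genes Adam7 was the most abundant in each group and was not called, with 37309.9 counts in FVB vehicle and 53922 in FVB DEHP. Gpx5, an epididymal glutathione peroxidase gene, had 71.4 and 24121, and the lipocalin gene Lcn5 had 9.18 and 6686. Defb41 was listed at 0 in C57 F2. Of the 3 prostate genes tested, Pbsn was higher in FVB DEHP (18.4 counts against 0.559), and Tgm4, which was not called, had 75.1 against 33.9. Pbsn reached 10 counts in FVB DEHP alone of the pair and could not be called lower. The part of epididymal or prostate RNA in the levels of Spint4 and Spint5 was not tested.

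Svs RNA was already scarce in FVB vehicle, and none of the 3 Svs genes tested was called. Svs2 had a log2 ratio of -0.67, Svs4 of -0.74 and Svs5 of 0.51. The differences of Svs2 (27.1 against 25.6) and Svs4 (80.8 against 70.7) exceeded their model SD. Svs3a, Svs3b and Svs6 had fewer than 3 counts in both FVB groups, where a decrease could not be detected.

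The log2 ratio in FVB/N minus that in C57BL/6J describes how the response to DEHP differs between the strains. Of 27 members with 10 counts in any first-generation group, 8 were upward by 2 units or more and 0 downward. Of 17556 genes, 0.997% were upward and 0.228% downward. The 8 were the 6 Svs genes, Spint4 and Spint5. Svs3a, Svs3b and Svs6 had 3 counts or fewer in both FVB groups and Svs5 had 7.47 in FVB vehicle, so a decrease of these 4 could hardly be seen in FVB/N. Svs2 (a difference of 11.46) and Svs4 (10.31) had counts to lose there, and their log2 ratios in FVB/N were -0.67 and -0.74, but a decrease as large as in C57BL/6J was not possible. The C57BL/6J differences of Svs2, Svs4, Svs5 and Svs6 did not exceed their model SD. Spint4 (7.43) and Spint5 (6.92) reached 10 counts in FVB DEHP alone and had 3 counts or fewer in both first-generation C57 groups. The other 19 members lay between -1.50 for Wfdc12 and 1.13 for Wfdc13.

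**Figure D5:**
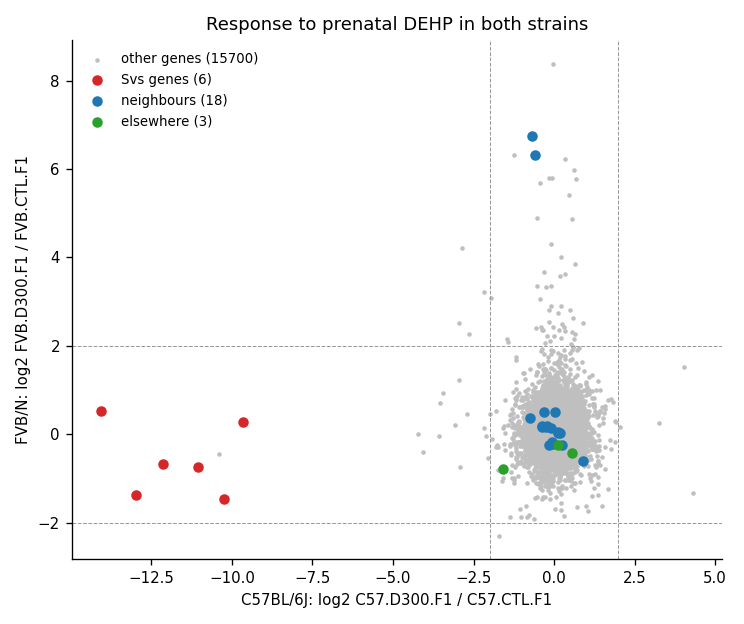
Log2 ratio of DEHP to vehicle in FVB/N (vertical) against that in C57BL/6J (horizontal) for members with at least 10 counts in any first-generation group and for other genes tested in both strains, with dashed lines at 2 log2 units either way. The 6 Svs genes lie at the left between -14.06 and -9.66, and Spint4 (6.75) and Spint5 (6.31) lie at the top. Svs3a, Svs3b and Svs6 are at the floor in FVB/N, and Spint4 and Spint5 in C57BL/6J.

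The second generation was compared with both first-generation C57BL/6J groups. Against C57 vehicle, the group that is also used for C57 DEHP and FVB vehicle, 7 members were lower and 1 higher in C57 F2. Of 17114 genes tested, 3.61% were lower and 0.584% higher. The lower members were the 6 Svs genes, with log2 ratios from -9.78 for Svs5 to -8.07 for Svs2, and Wfdc21. The difference did not exceed its model SD for Svs2 (54232 against 408519), Svs4, Svs5 and Svs6, which leaves 3 of the 7. The higher member was Wfdc12, with 12.7 counts against 1.88. It reached 10 counts in C57 F2 alone of the 2 groups and was not called with a pseudocount of 10 or a minimum of 100 counts. Wfdc13 had a log2 ratio of 1.11, and its difference exceeded its model SD (233 against 119). Over the 16 WFDC and Kunitz genes tested the median was 0.16, and 0.17 over all 19, beside -0.04 over all genes tested. Slpi was 3.54-fold lower, a log2 ratio of -1.82 that does not reach the threshold. The syndecan gene Sdc4, 89.9 kb beyond the Svs genes and named after its values were seen, had 598 counts against 1914, a log2 ratio of -1.68. The differences of Slpi and Sdc4 exceeded their model SD. So did those of the flanking genes Pigt (log2 ratio 0.54) and Ube2c (-0.67), and 0 of 22 flanking genes tested were called.

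Against C57 DEHP, 4 Svs genes were higher in C57 F2 and Wfdc21 was lower. Of 17133 genes tested, 0.333% were higher and 3.30% lower. The log2 ratio was 4.27 for Svs5, 4.06 for Svs2, 3.40 for Svs6 and 2.50 for Svs4, and all 4 differences exceeded their model SD. Svs4 was 5.83-fold higher. Of the 2 groups, Svs5 and Svs6 reached 10 counts in C57 F2 alone. Svs6 was not called with a pseudocount of 10, nor Svs5 and Svs6 with a minimum of 100 counts. Svs3a (1.01) and Svs3b (1.68) had too few counts to be tested. Relative to C57 vehicle the C57 F2 counts remained low, 270.4-fold lower for Svs2 and 378-fold for Svs4. Over the 16 WFDC and Kunitz genes tested the median was 0.16, and 0.19 over all 19, beside -0.05 over all genes tested, and 11 of the 16 were above 0. Wfdc13 had a log2 ratio of 1.87, and was called higher where groups were scaled to equal totals. Wfdc12 (1.35), Wfdc8 (0.72) and Eppin (0.71) had the same sign. Slpi, next to the Svs genes, had 228 counts against 676, a log2 ratio of -1.57, and the flanking genes Sdc4 and Tnnc2 had log2 ratios of -1.23 and -0.88. These 7 differences exceeded their model SD, and those of Slpi, Sdc4 and Tnnc2 were opposite in sign to the Svs genes. Of the 7 seminal vesicle genes outside the cluster 6 were tested and 0 were called, with a median log2 ratio of 0.70. All 7 were above 0, from 0.22 for Spinkl to 1.18 for 9530003J23Rik where tested. Spink1, which was not tested, had 2.46. The prostate genes Pbsn (0.280 and 62.7 counts) and Tgm4 (38.7 and 199.6 counts), of 3 tested, were higher in C57 F2 too. Pbsn reached 10 counts in C57 F2 alone of the 2 groups and could not be called lower. Of 6 blood and leukocyte genes tested, 1 was called higher, S100a8 (62.9 and 263 counts), and 0 lower. The others had log2 ratios of 1.33 (S100a9), 1.15 (Hba-a2), 0.04 (Hbb-b1), -0.97 (Ptprc) and -1.72 (Lyz2). Of the liver genes 9 of 9 were lower, with a median log2 ratio of -5.18. The part of these tissues in the result was not tested.

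The strains were compared without DEHP, and 2 members were higher and 7 lower in FVB vehicle than in C57 vehicle. Of 17086 genes tested, 1.44% were higher and 8.88% lower. The lower members were the 6 Svs genes and Wfdc21. The differences of Svs2, Svs4, Svs5 and Svs6 did not exceed their model SD, which leaves 3 of the 7. Eppin, which encodes the inhibitor that binds semenogelin, had 158, 122, 199.6, 776 and 875 counts and was 4.90-fold higher in FVB vehicle, a log2 ratio of 2.29. Wfdc12 was higher as well, with 24.5 counts against 1.88, but reached 10 counts in FVB vehicle alone of the pair and was not called with a pseudocount of 10 or a minimum of 100. Wfdc2, which encodes the secreted protein HE4, had 56.5 counts against 13.4, just short of the threshold, which it passed with equal totals. Wfdc13 had 200.4, 118, 434, 628 and 813 counts and a log2 ratio of 1.64. The differences of Eppin, Wfdc12, Wfdc2 and Wfdc13 exceeded their model SD. So did those of Wfdc6a (160 against 88.8) and Wfdc6b (548 against 317), which were higher, and Wfdc9 (420 against 404), which was lower. Slpi had 361 counts in FVB vehicle against 804, a log2 ratio of -1.15 short of the threshold. Sdc4 had 581 counts against 1914, a log2 ratio of -1.72. The differences of Slpi (444 against 224) and Sdc4 (1333 against 616) exceeded their model SD too. Among flanking genes that were not called, so did those of Pigt (log2 ratio 1.24), Kcns1 (0.66), Trp53tg5 (-1.64) and Zswim3 (-0.90). Over the 16 WFDC and Kunitz genes tested the median was 0.53, and 0.55 over all 19, beside -0.03 over all genes tested, and 11 of the 16 were above 0. Spata25 was the 1 flanking gene called, with 2.83 counts against 15.3.

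Several genes of the second cluster varied little. Wfdc16 had 4965, 4459, 5568, 4810.4 and 4035 counts, its highest 1.38-fold above its lowest. Wfdc8, whose protein carries both kinds of inhibitor domain, had 2864, 2307, 3796, 2431 and 3434 counts. Spint3 had 987, 845, 980.1, 1406 and 1591 counts. Wfdc10 and Wfdc9, which overlap by 538 bases on opposite strands, had opposite directions between FVB vehicle and C57 vehicle and were not called. The difference exceeded its model SD for Wfdc9 (420 against 404) and did not for Wfdc10 (3222 against 4961). Wfdc10 had 6568, 6149, 6482, 9790.1 and 10759 counts and Wfdc9 had 1288, 1416, 1826, 868 and 897. The 538 bases are an overlap of gene spans, and the annotated transcripts of the pair had no 25-base stretch in common on either strand. Those of Wfdc8 and Wfdc6b, whose spans overlap by 105 bases, had 81 in common on opposite strands. As the strand setting at quantification is not stated, reads from these may have gone to either Wfdc8 or Wfdc6b. Wfdc6a had 161, 175, 179, 320.4 and 326 counts and Wfdc6b 582, 655, 647, 1130.1 and 1152, with log2 ratios of FVB vehicle to C57 vehicle of 0.99 and 0.96. Of the 25-base stretches of Wfdc6a transcripts 53.9% also occur in Wfdc6b, so the division between them is uncertain. Wfdc11 had 76.8, 73.3, 87.0, 113 and 99.1 counts. Per kb of exon Wfdc10 had the highest level of the members outside the Svs genes in each group, with 14309 counts per kb in C57 vehicle and 23440.1 in FVB DEHP. Wfdc15b came next, with 6739 and 5802 counts per kb.

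The other members of the locus were low, with 10.5 to 16.1 counts for Wfdc15a, 14.3 to 18.8 for Wfdc3 and fewer than 10 in each group for Wfdc5. Of the 29 members, 22 had 100 counts in at least 1 group and 2 had fewer than 10 in each.

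Of the 4 family members outside the locus, Wfdc21 alone was called in any comparison. Wfdc21, on chromosome 11, had 990.3, 331, 8.47, 6.25 and 3.23 counts. It was 117-fold lower in C57 F2 than in C57 vehicle and 39.1-fold lower than in C57 DEHP, and both differences exceeded their model SD. The liver sums have the same order of groups, and their part in the result was not tested. Wfdc17, also on chromosome 11 and known from macrophages, had 109, 159, 46.6, 37.4 and 27.7 counts and was not called in any of the 5 comparisons, though its difference exceeded its model SD in all but that between the FVB groups. Wfdc18 had 3.41 counts at most, and Wfdc1, on chromosome 8, had 34.8 to 47.1.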

How the data were processed

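The table covers 25 sperm libraries in 5 groups. The authors clipped adapters, mapped reads to mm10 with TopHat (strand-specific) and quantified 24358 genes with Cuffdiff, after base calling with CASAVA 1.8.2. The deposited signal is an estimated number of fragments for each gene in each group, made comparable across libraries by Cuffdiff and not corrected for length. The deposited score is its variance under the model, from which the model SD was taken. For a difference the variances of both groups were added. The release of the gene annotation and the strand setting at quantification are not stated. Failed estimates (71 genes in 1 group or more, 0 members) were left out of the group in which they failed. Shares of all counts and the scaling to equal totals thus rest on slightly different genes in each group.

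Log2 ratios used a pseudocount of 1, a minimum of 10 counts in either group and a threshold of 2 log2 units. No test was possible with 1 value per group. Of the 5 comparisons, 3 use C57 vehicle. Positions and exon lengths are from GENCODE M21. Members with 100 counts in any group are given in full and the rest by range. Flanking genes are named where called or nearest, and some others after their values were seen. The members, gene lists and motifs were chosen with earlier results of these data known. Alternatives were pseudocounts of 0.1 and 10, equal totals, median-of-ratios scaling, a minimum of 100 counts or none, a threshold of 1 log2 unit, differences that also exceed the model SD, windows of 250 and 1000 kb, and values under 3 set to 3. The procedure was tested on simulated data. There the ratio of model SD to count was capped below that of the Svs genes in C57 vehicle, and genes with low starting counts were left out. The simulation thus does not bear on calls of the Svs genes or of genes near the floor. Python 3.11.15, numpy 2.4.6, pandas 2.3.3 and matplotlib 3.10.9 were used.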

Additional observations from a re-analysis of the deposited data

How the results depend on the processing

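No paired analysis was possible because the table holds 1 value per group, and for the same reason no library could be left out. Of 190 alternative values, 173 stayed near the reported value (a number of genes within 1.5 times, a median within 0.5 log2 units), 17 moved, and no value of 2 log2 units or more changed sign. Of 70 medians of WFDC and Kunitz genes or flanking genes, 0 moved by 0.5 log2 units, but 10 with a reported value just under 0 changed sign, 9 of them of flanking genes and 5 with equal totals. Setting values under 3 to 3, an alternative chosen after seeing the data, moved 0 values past these limits. It left 3 higher members in place of 2 for FVB vehicle relative to C57 vehicle. A pseudocount of 0.1 (Wfdc2 added) and no minimum (Spint4 added) also left 3 there. Equal totals also moved 0 values past these limits, but left 5 higher members in place of 4 for C57 F2 relative to C57 DEHP (Wfdc13 added) and 3 in place of 2 for FVB vehicle relative to C57 vehicle (Wfdc2 added), and shifted the median of all genes to 0.14 for C57 DEHP and 0.28 for C57 F2 relative to C57 vehicle, 0.12 for C57 F2 relative to C57 DEHP, 0.16 for FVB vehicle relative to C57 vehicle and -0.13 for FVB DEHP relative to FVB vehicle.

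Relative to C57 vehicle, 2 members in place of 6 were lower in C57 DEHP where the difference also had to exceed its model SD, and 3 in place of 7 in C57 F2 and in FVB vehicle. With a pseudocount of 10 the Svs median was -10.44 in place of -11.59 for C57 DEHP and -8.81 in place of -10.06 for FVB vehicle, and the higher members were 0 in place of 1 for C57 F2 and 1 in place of 2 for FVB vehicle. With 0.1 the Svs median was -10.83 for FVB vehicle. A minimum of 100 counts left 0 higher members for C57 F2 and 1 for FVB vehicle. At 1 log2 unit they were 2 and 4. Relative to C57 DEHP, the Svs median of C57 F2 was 4.36 with 0.1, 2.32 with 10 and 2.95 with no minimum, in place of 3.73. The higher members were 2 in place of 4 with a minimum of 100, and the lower ones 3 in place of 1 at 1 log2 unit. The cause was not tested.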
